A study of Homo sapiens with 43 samples.

Results

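The comparison described here sets 2 derivatives of 1 breast cancer line, LCC2 and LCC1, against each other. HCC1954 is an established human line from a breast carcinoma that carries extra copies of the ERBB2 gene. Its latency-competent cell derivatives (LCC) were, per the labels, isolated from a mouse organ that gave no bioluminescence signal, and the labels name neither the organ nor the mouse. Each derivative was grown in vitro below confluence for 48 h in mitogen-rich medium (MRM) or in mitogen-low medium (MLM), and total RNA was sequenced. The members are the 8 libraries of LCC1 and LCC2, 2 per derivative and medium, out of 31 RNA samples and 43 samples in all. The 6 HCC1954 parental libraries, 3 per medium and grown in the same way, serve here only to say which derivative left the parental level. Each derivative is 1 cell population, so a difference between LCC2 and LCC1 is a difference between 2 populations. Whether replicates came from separate cultures is not stated in the labels, and the p-values therefore measure only how far these libraries lie apart, which may be technical.

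Latency-competent cells are disseminated cancer cells that survive in an organ without growing out into a lesion and that keep the ability to do so. Such cells are studied for how they respond to mitogens, for their expression of stem cell regulators and WNT inhibitors, and for the ligands by which natural killer (NK) cells recognise them. HCC1954 carries features of both luminal and basal breast epithelium. The MAPK pathway lies below the ERBB2 receptor, and whether growth of these cells depends on either was not tested here.

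A value is a deposited normalized read count, that is, reads divided by a size factor of the library. The 8 libraries held 24931204 to 39870982 reads. The label of origin was checked on ERBB2, which ranged from 119992 to 217790.5 in LCC1 and from 136399.6 to 187245 in LCC2, and on the epithelial cadherin CDH1, at 10889.6 to 13906 and 12432 to 14953. LCC1 replicate 2 in MRM stood apart from the other LCC1 library of that medium: 11.6% of the genes were over 2-fold apart between them, against 0.227% to 1.18% in the other 3 pairs of derivative libraries. Parental replicate 3 in MLM stood apart in the same way, with 7.2% of the genes over 2-fold from either of the other parental libraries of MLM. Counts of called members are therefore given with and without LCC1 replicate 2 in MRM for most gene lists. Each LCC2 library had a smaller sum of deposited values than any LCC1 library. Scaling all libraries to equal totals instead moved the median log2 difference of all genes from 0.0041 to 0.15, and the share of called genes that were higher in LCC2 from 48.9% to 67.1%. Each gene list given a direction below kept the sign of its median under that scaling.

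LCC2 and LCC1 differed at a large share of their genes. Of 15467 genes with a mean of at least 10 over the 8 libraries, 7082 (45.8%) were called at a limma adjusted p under 0.05, with medium as a block. LCC2 was higher at 3466 of them (22.4% of the tested genes) and lower at 3616 (23.4%). These shares are the background for every count of a gene list below, and without LCC1 replicate 2 in MRM they were 26.7% and 28.9%. A difference over 2-fold was fitted for 1661 called genes, over 4-fold for 403 and over 10-fold for 93. Without LCC1 replicate 2 in MRM 8583 of 15430 tested genes were called (55.6%), and they included 6891 of the 7082. All 4 LCC2 libraries lay above all 4 LCC1 libraries at 2491 genes (16.1%) and below them at 2427 (15.7%). Within MLM 5964 genes were called (38.6%) and within MRM 5508 (35.6%), and 3561 genes were called in the same direction in both. These within-medium counts moved with single libraries: leaving out 1 of the 4 MLM libraries gave 2863 to 3196 in MLM, leaving out either LCC1 library of MRM gave 10540 and 10558 in MLM and 9155 and 10135 in MRM, and leaving out either LCC2 library of MRM gave 1919 and 2047 in MRM. A log2 difference is LCC2 minus LCC1 on log2 of the value plus 1, with its standard error (SE), and it understates the fold of genes with low values.

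A few genes were read from one derivative and hardly from the other. With limits chosen after the values were seen, 9 genes lay at or under 10 in all 4 libraries of one derivative and at or over 100 in all 4 of the other. LARP6, which encodes an RNA-binding protein known for stabilising collagen mRNA, stood at 495 and 465 in MLM and 247 and 271 in MRM in LCC1. LCC2 gave 0 LARP6 reads in all 4 libraries, where the LCC1 libraries held 1366 reads. Against a floor of 3 reads over the 4 LCC2 libraries LARP6 was at least 527-fold lower in LCC2, and the 6 parental libraries lay at 175 to 283. ANKS6, a ciliary ankyrin-repeat protein, stood at 308 and 296 in MLM and 257 and 406 in MRM in LCC1 and at 1.14 and 3.04 in MLM and 0 and 1.35 in MRM in LCC2 (log2 difference -7.20 ± 0.38 (SE), limma adjusted p = 3.55e-05). Its LCC2 libraries held 6 reads together, and the parental libraries lay at 124 to 198. For both genes the LCC1 libraries were the highest of the 3 populations in MLM and LCC2 stood apart from both other populations.

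The other 5 genes that were near 0 in LCC2 were PLCXD3, OLFML3, PCSK1N, FAM9C and CREG2. PLCXD3, a phospholipase family member, ranged from 151 to 224 in LCC1 and from 0 to 4.06 in LCC2. OLFML3, a secreted olfactomedin-like protein, ranged from 192 to 843 in LCC1 and from 2.7 to 9.15 in LCC2. PCSK1N, an inhibitor of a prohormone convertase, ranged from 173 to 375 in LCC1 and from 2.62 to 9.12 in LCC2. The parental level of this group was not uniform: FAM9C lay at 1443 to 2178 in the parental libraries, above both derivatives, whereas CREG2 lay at 1.22 to 18.3 there, 127 to 181 in LCC1 and 3.04 to 8.73 in LCC2. CREG2 was thus high in LCC1 alone, and the summed reads per size factor of these genes were from 26.3-fold (CREG2) to 123-fold (PLCXD3) lower in LCC2.

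AUTS2 and SLC5A1 showed the opposite pattern. AUTS2, a regulator of transcription linked to Polycomb complexes and to neuronal development, stood at 3.68 and 1.24 in MLM and 6.16 and 1.56 in MRM in LCC1 and at 969 and 977 in MLM and 1891 and 1831 in MRM in LCC2 (log2 difference 8.50 ± 0.36 (SE), limma adjusted p = 1.84e-05). The LCC1 libraries held 12 AUTS2 reads together and the LCC2 libraries 6688, and the parental libraries lay at 1338 to 2152. SLC5A1, the sodium-coupled glucose transporter SGLT, stood at 2.46 and 1.24 in MLM and 1.03 and 1.56 in MRM in LCC1 and at 609 and 539 in MLM and 587 and 593 in MRM in LCC2 (log2 difference 7.85 ± 0.20 (SE), limma adjusted p = 2.58e-06). Its parental level, 13 to 57.1, lay between the derivatives. RPS6KA2, a ribosomal S6 kinase that ERK activates, stood at 11.1 and 7.42 in MLM and 74 and 85.9 in MRM in LCC1 and at 2628 and 2565 in MLM and 1170.3 and 1217 in MRM in LCC2, against 2004 to 3381 in the parental libraries. The RPS6KA2 difference was 8.01 in MLM and 3.89 in MRM on the log2 scale.

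**Figure D1:**
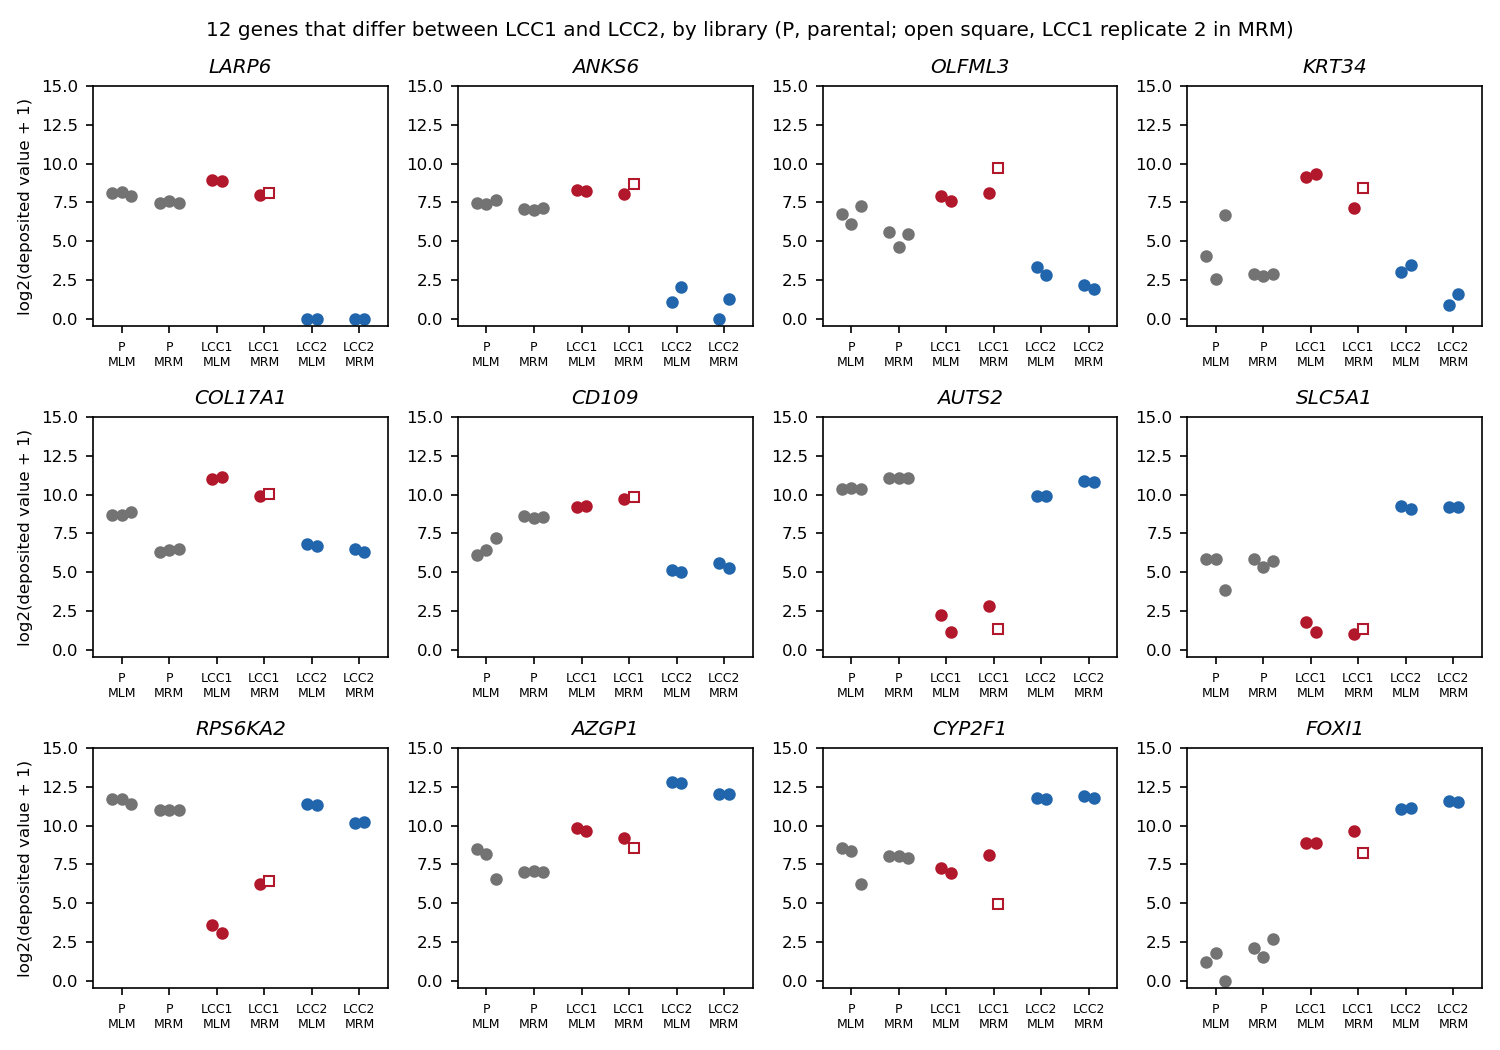
Each panel plots log2 of the deposited value plus 1 for 1 gene (y axis) in the 14 HCC1954 libraries, grouped on the x axis by cell population and medium. Each point is 1 library, P marks the parental libraries and the open square marks LCC1 replicate 2 in MRM. LARP6 lies at 0 in all 4 LCC2 libraries, and AUTS2 and SLC5A1 lie near 0 in all 4 LCC1 libraries.

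Several secreted and luminal genes were much higher in LCC2. AZGP1, a secreted zinc-binding glycoprotein made by breast and other glands, stood at 927 and 817 in MLM and 577 and 368 in MRM in LCC1 and at 7277 and 6977 in MLM and 4197 and 4279.8 in MRM in LCC2 (log2 difference 3.11 ± 0.13 (SE), limma adjusted p = 1.84e-05). CYP2F1, a cytochrome P450, ranged from 29.7 to 272 in LCC1, where replicate 2 in MRM was the lowest, and from 3410.4 to 3791 in LCC2 (log2 difference 4.99 ± 0.58 (SE), limma adjusted p = 0.000455). Its parental range of 73 to 366 overlapped that of LCC1, and LCC2 lay above both. SPON2, a secreted matrix protein, stood at 3.68 and 2.47 in MLM and 23.6 and 12.5 in MRM in LCC1 and at 344 and 340.3 in MLM and 359.5 and 337 in MRM in LCC2, and had at most 1.6 in any parental library. BPIFB1, a secreted protein of mucosal surfaces, ranged from 14.1 to 152 in LCC1, 1449 to 3027 in LCC2 and 2677 to 8885 in the parental cells (log2 difference 5.00 ± 0.60 (SE), limma adjusted p = 0.000539). PI3, the elastase inhibitor elafin, ranged from 80.5 to 281 in LCC1 and from 1466 to 1820.2 in LCC2 (log2 difference 3.16 ± 0.27 (SE), limma adjusted p = 0.000148). In none of these genes did the libraries of the derivatives overlap.

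Transcription regulators differed too. ID2, an inhibitor of basic helix-loop-helix factors, stood at 14.7 and 4.95 in MLM and 50.3 and 11.7 in MRM in LCC1 and at 181 and 187 in MLM and 936 and 888 in MRM in LCC2 (log2 difference 4.71 ± 0.48 (SE), limma adjusted p = 0.000281). SOX11 stood at 6.14 and 8.66 in MLM and 10.3 and 27.3 in MRM and at 394 and 392 in MLM and 218 and 204 in MRM in the same order (log2 difference 4.57 ± 0.45 (SE), limma adjusted p = 0.000254). FOXI1, the factor that specifies proton-secreting ionocytes, was nearly absent from the parental libraries (0 to 5.52), ranged from 300.0 to 812 in LCC1 and from 2108 to 3032 in LCC2 (log2 difference 2.40 ± 0.27 (SE), limma adjusted p = 0.000403). ATP6V1B1, the proton pump subunit of such cells, ranged from 39.8 to 153 in LCC1 and from 598 to 941 in LCC2 (log2 difference 3.11 ± 0.36 (SE), limma adjusted p = 0.000444). Both genes belong to a list of ion channels and transporters of epithelia that did not shift as a whole. Of its 14 tested members 4 were higher, 1 was lower and 9 were not called, against 22.4% higher and 23.4% lower over all tested genes. Without LCC1 replicate 2 in MRM 3 were higher and 5 lower, against 26.7% and 28.9%. The chromatin organiser SATB1 showed the same order as FOXI1, with 1.22 to 12 in the parental libraries, 133 to 216 in LCC1 and 736 to 1061 in LCC2. ZDHHC2, a palmitoyltransferase, was also near 0 in the parental libraries (0 to 12.4), but its difference of 0.64 ± 0.24 (SE) between the derivatives missed the threshold (limma adjusted p = 0.0585) and passed it without LCC1 replicate 2 in MRM (0.87, limma adjusted p = 0.00283), without LCC2 replicate 2 in MRM (limma adjusted p = 0.0486) and with equal library totals (limma adjusted p = 0.0269).

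Genes for attachment to the basement membrane were mostly lower in LCC2. Integrins are the membrane receptors for the extracellular matrix, and laminins are the main ligands in the basement membrane under an epithelium. Of 25 tested integrin and laminin genes 14 were lower and 5 higher in LCC2, with a median log2 difference of -0.63, against 23.4% lower, 22.4% higher and a median of 0.0041 over all tested genes (the list gave 13 lower and 7 higher without LCC1 replicate 2 in MRM). LAMA3, a laminin chain of epithelial anchoring sites, ranged from 3208 to 4958 in LCC1, 1038 to 1459 in LCC2 and 3025 to 4625 in the parental libraries (log2 difference -1.71 ± 0.14 (SE), limma adjusted p = 0.000148). ITGA5, the alpha chain of the fibronectin receptor, differed by -2.06 ± 0.15 (SE, limma adjusted p = 9.28e-05), and ITGA6, the alpha chain of a laminin receptor, by -1.33 ± 0.058 (SE, limma adjusted p = 2.05e-05). Among the members that were higher in LCC2 were LAMB2, with 1579.9 to 2397 in LCC1 and 5574 to 6857 in LCC2 (1.58 ± 0.11, SE), and the leukocyte integrin chain ITGB2 (1.20 ± 0.28, SE).

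Collagens and other surface genes followed. Of 20 tested collagen chains 9 were lower and 4 higher in LCC2, with a median of -0.58 (10 lower and 6 higher without LCC1 replicate 2 in MRM, with a median of -0.36). Over all tested genes 23.4% were lower and 22.4% higher. COL17A1, the transmembrane collagen of hemidesmosomes, stood at 2047 and 2204 in MLM and 949 and 1070.4 in MRM in LCC1 and at 113 and 100.3 in MLM and 89 and 77.1 in MRM in LCC2 (log2 difference -3.95 ± 0.16 (SE), limma adjusted p = 1.57e-05). The groups did not overlap in COL17A1, in any of the laminin and integrin genes named above or in the genes named next. COL4A6, a basement membrane chain, differed by -2.92 ± 0.24 (SE). The filament-forming chains of collagen VI went the other way: COL6A2 ranged from 147 to 448 in LCC1 and from 606 to 885 in LCC2, and COL6A1 differed by 1.40 ± 0.21 (SE). CD109, a membrane-anchored protein that binds TGF-beta, stood at 586 and 624 in MLM and 840.4 and 897 in MRM in LCC1 and at 34.3 and 31.4 in MLM and 48 and 37.2 in MRM in LCC2 (log2 difference -4.25 ± 0.12 (SE), limma adjusted p = 2.58e-06). MMP14, a membrane-bound matrix protease, fell from 1641 to 3726 in the parental libraries to 557 to 979 in LCC1 and to 36.6 to 61.8 in LCC2, and differed between the derivatives by -3.86 ± 0.23 (SE, limma adjusted p = 5.53e-05). SPARC, a secreted matrix glycoprotein, was higher in LCC2, at 7682 and 7198 in MLM and 2389 and 2430.2 in MRM against 409 and 322 in MLM and 878 and 435 in MRM in LCC1.

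Interferon stimulated genes were lower in LCC2 than in LCC1, and 3 of the 4 LCC1 libraries lay above every LCC2 library in the mean level of the list. These genes encode antiviral effectors and sensors, and in most cells they are switched on by the factor complex ISGF3, which binds the interferon-stimulated response element in their promoters. Of 40 tested members 33 were lower in LCC2 and the other 7 were not called, with a median log2 difference of -1.76. The mean log2 level of the list was 12.28 and 12.55 in MLM and 12.01 and 10.20 in MRM in LCC1 and 10.88 and 10.47 in MLM and 9.62 and 9.65 in MRM in LCC2. LCC1 replicate 2 in MRM lay above both LCC2 libraries of its own medium and inside the LCC2 range over both media. In that library 87.5% of the tested members were over 2-fold lower than in LCC1 replicate 1 of the same medium. With all 8 libraries only 6 members had every LCC2 value below every LCC1 value (15.7% of all tested genes did). Without that library 37 members did (20.8% of all tested genes), 39 were called lower (28.9% of all tested genes) and the median was -2.18.

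OAS2, an antiviral oligoadenylate synthetase, stood at 18209 and 22901 in MLM and 15367 and 1661 in MRM in LCC1 and at 2469 and 1645 in MLM and 411 and 439 in MRM in LCC2 (log2 difference -3.45 ± 0.59 (SE), limma adjusted p = 0.00241, and -4.07 without LCC1 replicate 2 in MRM). ISG15, a ubiquitin-like modifier, stood at 15629.9 and 20418 in MLM and 10326 and 2482 in MRM in LCC1 and at 2582 and 2360.0 in MLM and 431 and 445 in MRM in LCC2 (log2 difference -3.19 ± 0.39 (SE), limma adjusted p = 0.000597, and -3.53 without that library). The parental libraries were themselves uneven, with ISG15 from 1306 to 9687. IFIT3, IFIT1 and IFI44L differed by -2.71 ± 0.48, -2.62 ± 0.45 and -3.19 ± 0.58 (SE). In OAS2, ISG15 and each of these 3 genes the LCC1 replicate 2 of MRM overlapped the LCC2 libraries, and the other 3 LCC1 libraries did not. In OAS2 and ISG15 the overlap was with LCC2 libraries of MLM, and LCC1 replicate 2 in MRM lay above both LCC2 libraries of MRM. MX1, an antiviral GTPase named here after its values were seen, was one of the members not called, at 237 and 233 in MLM and 183 and 116 in MRM in LCC1 and 203 and 164 in MLM and 196 and 204 in MRM in LCC2 (log2 difference 0.049 ± 0.21 (SE), limma adjusted p = 0.87). Of 19 MHC class I and antigen processing genes 5 were lower and 14 were not called, against 23.4% lower over all tested genes. Without LCC1 replicate 2 in MRM 11 were lower (28.9% over all tested genes), among them NLRC5, the activator of MHC class I genes (-1.49, limma adjusted p = 3.29e-05).

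The promoters of 3 members that were lower in LCC2 are shown because each carries the response element more than once. It was written as GAAANNGAAA, 2 GAAA half-sites with any 2 bases between them, and searched on both strands of the 250 bases before the RefSeq gene start, with overlapping matches counted separately. Capitals mark each match on either strand. ISG15 lies at chr1:1013247-1013496 (forward strand), IFIT1 at chr10:89392373-89392622 (forward strand) and IFIT3 at chr10:89327747-89327996 (forward strand) of GRCh38.p14, the build of the RefSeq table.
ISG15: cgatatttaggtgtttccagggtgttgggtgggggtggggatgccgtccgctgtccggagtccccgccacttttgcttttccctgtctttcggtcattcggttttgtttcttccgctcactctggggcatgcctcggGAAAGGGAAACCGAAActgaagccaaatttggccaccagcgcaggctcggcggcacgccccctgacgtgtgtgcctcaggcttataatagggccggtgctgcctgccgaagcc
IFIT1: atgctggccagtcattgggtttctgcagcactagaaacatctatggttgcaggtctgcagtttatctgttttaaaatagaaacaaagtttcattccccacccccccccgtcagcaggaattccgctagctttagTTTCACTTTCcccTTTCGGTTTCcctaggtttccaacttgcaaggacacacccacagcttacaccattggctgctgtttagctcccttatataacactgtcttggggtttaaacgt
IFIT3: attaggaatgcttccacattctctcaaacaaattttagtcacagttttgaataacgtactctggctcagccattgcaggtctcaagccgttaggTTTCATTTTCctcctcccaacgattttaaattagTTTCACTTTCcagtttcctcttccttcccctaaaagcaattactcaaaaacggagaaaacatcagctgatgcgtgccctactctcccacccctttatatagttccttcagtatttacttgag
Each of these promoters holds 2 matches. RefSeq gave a promoter for 31 tested list members, and 18 of them held at least 1 match (58.1%), against 2.32% of 11847 tested genes and 3.07% of all 27305 promoters of that length. The share was 57.7% among the 26 members that were called lower and 3 of 5 among the rest. A match is a description of the sequence and not a bound site.

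Glycolytic and hypoxia-inducible genes were lower in LCC2, and here the library that stood apart changed little. These genes carry glucose through glycolysis to lactate, and many are targets of the factor HIF. Of 27 tested members 23 were lower in LCC2 and 1 was higher, with a median log2 difference of -1.17 (26 lower and 0 higher without LCC1 replicate 2 in MRM, with a median of -1.16). All 4 LCC2 libraries lay below all 4 LCC1 libraries at 19 members, against 15.7% of all tested genes. NDRG1, a hypoxia-induced cytosolic protein, stood at 3597 and 4121 in MLM and 1821 and 1029 in MRM in LCC1 and at 367 and 422 in MLM and 257 and 258 in MRM in LCC2 (log2 difference -2.85 ± 0.23 (SE), limma adjusted p = 0.00012). ENO2, an enolase, ranged from 125 to 337 in LCC1 and from 36.5 to 58.3 in LCC2 (log2 difference -2.49 ± 0.27 (SE), limma adjusted p = 0.000367). PDK1, the kinase that keeps pyruvate out of the mitochondria, stood at 1493 and 1421 in MLM and 901 and 988 in MRM in LCC1 and at 339.5 and 304 in MLM and 258 and 272 in MRM in LCC2 (log2 difference -2.0 ± 0.097 (SE), limma adjusted p = 2.72e-05), and the parental libraries lay at 511 to 1596. In these 3 genes the derivatives did not overlap.

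ALDOC, an aldolase, was among the members in which the derivatives overlapped: it stood at 2240.0 and 2324 in MLM and 830.2 and 138 in MRM in LCC1, with replicate 2 in MRM below both LCC2 libraries of MLM, and at 449 and 437 in MLM and 106 and 83.1 in MRM in LCC2 (log2 difference -2.10 ± 0.48 (SE), limma adjusted p = 0.00864). GAPDH, LDHA, SLC16A3, VEGFA and CA12 are named here after their values were seen. GAPDH stood at 149889 and 140678 in MLM and 118564 and 125889 in MRM in LCC1 and at 50831 and 50035 in MLM and 48229.6 and 47404 in MRM in LCC2 (log2 difference -1.44 ± 0.074 (SE), limma adjusted p = 3.16e-05). LDHA, which makes lactate, ranged from 23131 to 35635 in LCC1 and from 8771 to 14279.9 in LCC2 (log2 difference -1.40 ± 0.17 (SE), limma adjusted p = 0.000618), and the lactate exporter SLC16A3 from 2983 to 6214 and from 1171 to 1295. All 4 LCC2 libraries lay below all LCC1 libraries in these genes. VEGFA, the angiogenic factor, ranged from 7660.4 to 13424 in LCC1, 4145 to 4948 in LCC2 and 3971 to 8467 in the parental libraries. CA12, a carbonic anhydrase, was the only called member that was higher in LCC2 (log2 difference 0.91 ± 0.31 (SE), limma adjusted p = 0.0457), and it was not called without LCC1 replicate 2 in MRM (0.66, limma adjusted p = 0.0677) or without any of the LCC1 libraries of MLM or the LCC2 libraries (limma adjusted p from 0.0752 to 0.127), and edgeR gave it an adjusted p of 0.05.

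The core of the hypoxia response element, ACGTG or GCGTG, was searched in the same way, and a CACGTG counts as an ACGTG match on each strand. The promoters of ALDOC at chr17:28576896-28577145 (reverse strand) and ENO2 at chr12:6914330-6914579 (forward strand) are shown, with each match in capitals, since both genes are among the members with the largest differences.
ALDOC: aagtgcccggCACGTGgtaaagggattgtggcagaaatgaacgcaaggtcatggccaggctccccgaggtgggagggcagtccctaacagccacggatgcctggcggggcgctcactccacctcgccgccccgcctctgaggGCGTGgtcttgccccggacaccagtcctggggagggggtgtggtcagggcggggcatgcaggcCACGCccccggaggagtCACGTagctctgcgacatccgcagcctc
ENO2: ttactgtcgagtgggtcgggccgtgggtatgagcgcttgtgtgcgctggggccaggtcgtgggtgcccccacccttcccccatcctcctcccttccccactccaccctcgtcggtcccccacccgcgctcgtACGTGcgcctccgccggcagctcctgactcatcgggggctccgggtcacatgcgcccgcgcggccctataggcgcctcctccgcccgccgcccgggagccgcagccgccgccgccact
ALDOC holds 5 matches and ENO2 holds 1. Such short letters are frequent: 17 of the 24 members with an entry held at least 1 match (70.8%), against 55.8% of the tested genes and 43.1% of all promoters in the table. The share was 70.0% among the 20 members called lower and 3 of 4 among the rest.

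**Figure D2:**
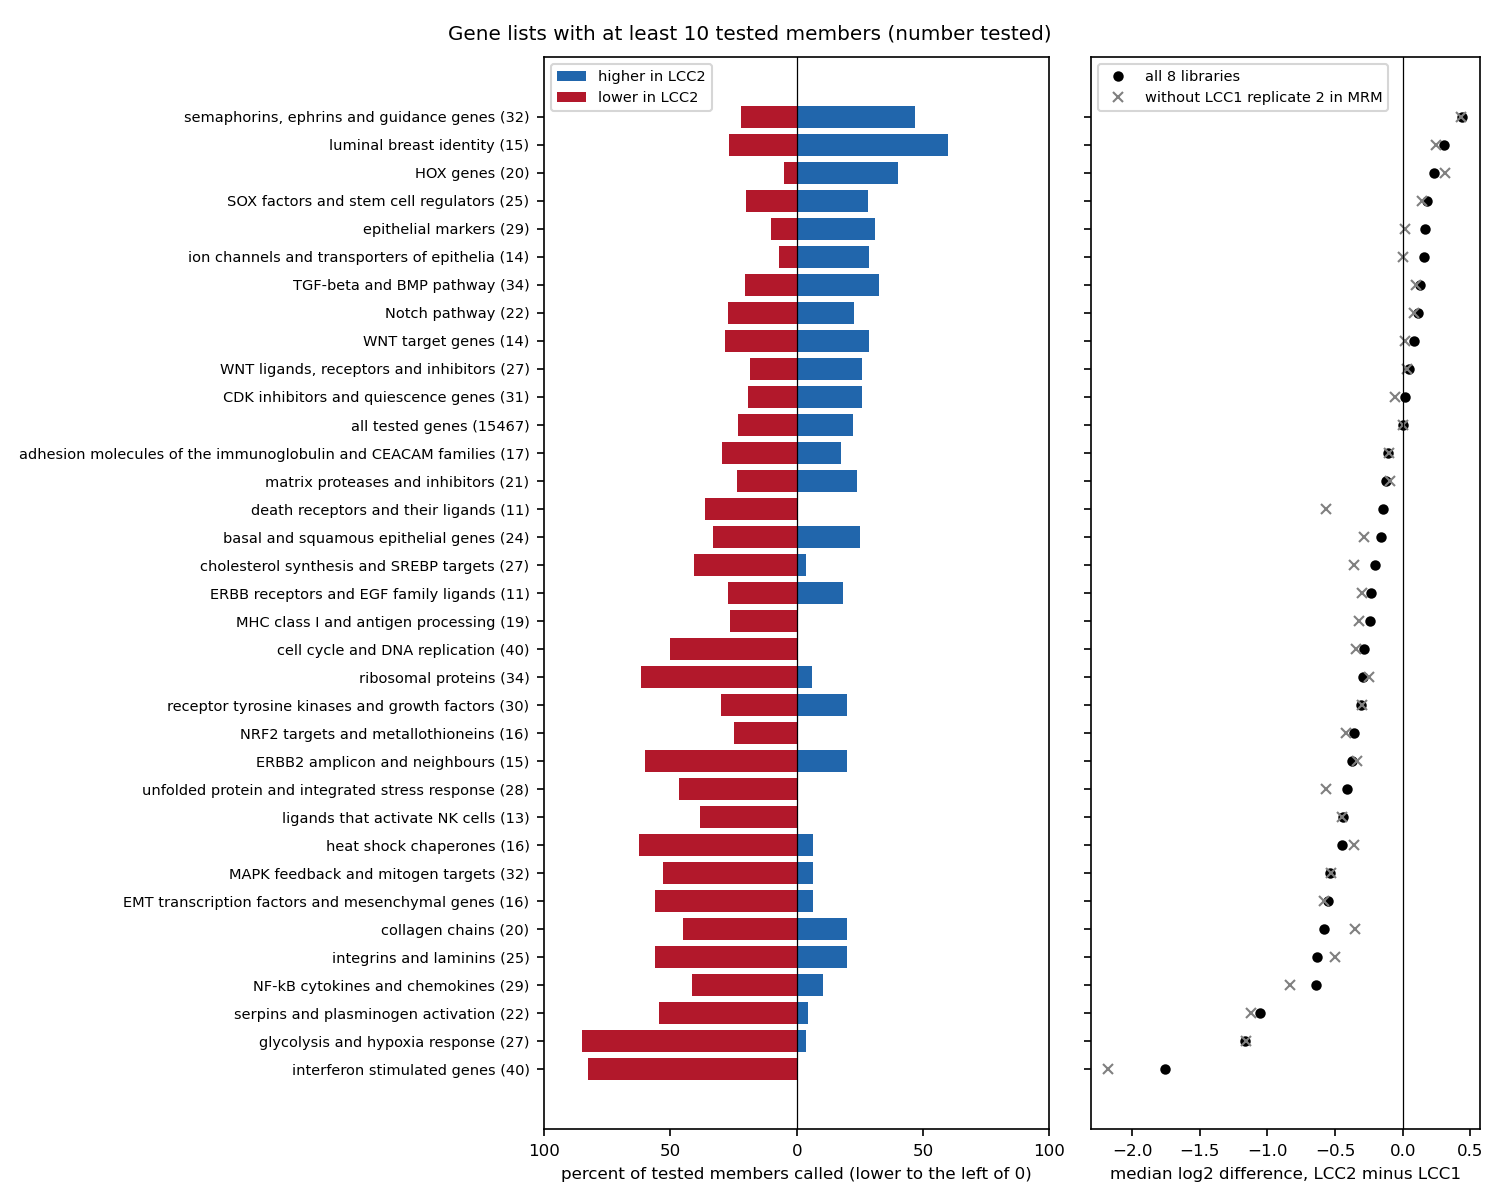
The left panel gives, for each gene list with at least 10 tested members, the percent of them called higher in LCC2 (blue, right of 0) or lower in LCC2 (red, left of 0), and the right panel the median log2 difference with all 8 libraries (dots) and without LCC1 replicate 2 in MRM (crosses). Interferon stimulated genes and glycolysis and hypoxia genes lie lowest, at medians of -1.76 and -1.17, and all tested genes lie at 0.0041.

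Targets of MAPK signalling were mostly lower in LCC2. The list holds immediate early genes that mitogens induce and the phosphatases and inhibitors that damp the pathway. Of 32 tested members 17 were lower and 2 higher, with a median of -0.54, and without LCC1 replicate 2 in MRM 17 were lower and 3 higher. FOSL1, an AP-1 subunit, stood at 6731 and 6992 in MLM and 2555 and 8647 in MRM in LCC1 and at 1229 and 1290.4 in MLM and 644 and 595 in MRM in LCC2 (log2 difference -2.68 ± 0.33 (SE), limma adjusted p = 0.00057). DUSP6, the phosphatase that turns off ERK, stood at 2378 and 2550.4 in MLM and 1171 and 1963 in MRM in LCC1 and at 760.2 and 774 in MLM and 601 and 627 in MRM in LCC2 (log2 difference -1.49 ± 0.16 (SE), limma adjusted p = 0.000328). The derivatives did not overlap in either gene. DUSP5, EPHA2 and MYC differed by -1.45 ± 0.13, -1.36 ± 0.15 and -0.72 ± 0.091 (SE). DUSP2, a phosphatase of the same family, was higher in LCC2, at 233 and 224 in MLM and 209 and 185 in MRM against 27 and 52 in MLM and 59.6 and 158 in MRM (log2 difference 1.79 ± 0.42 (SE), limma adjusted p = 0.00991). EGR1, an immediate early factor, was not called over both media and stood at 2129.5 and 2356 in MLM and 582 and 1203 in MRM in LCC1 and at 1055 and 1072 in MLM and 1907 and 1857 in MRM in LCC2, so its LCC2 values were below those of LCC1 in MLM and above them in MRM. Among receptors upstream of this pathway EGFR ranged from 2678 to 4979 in LCC1 and from 1207 to 2347 in LCC2 (log2 difference -1.15 ± 0.061 (SE), limma adjusted p = 3.55e-05), MET differed by -0.94 ± 0.073 (SE), and AXL stood at 2346 and 2302 in MLM and 2958 and 7074 in MRM in LCC1 and at 1477 and 1496 in MLM and 1025 and 1006 in MRM in LCC2.

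Inflammatory cytokines and serpins were among the genes that were lower in LCC2. Of 29 tested cytokines, chemokines and feedback genes of NF-kB 12 were lower and 3 higher, with a median of -0.64. In MLM 16 were lower and 1 higher with a median of -1.12, in MRM 7 were lower and 5 higher with a median of -0.10, and 18 were lower and 4 higher without LCC1 replicate 2 in MRM. Of all 15467 tested genes 3093 were lower and 2871 higher in MLM, and 2941 lower and 2567 higher in MRM. CSF2, the cytokine GM-CSF, stood at 184 and 191 in MLM and 55.5 and 276 in MRM in LCC1 and at 6.86 and 4.05 in MLM and 2.62 and 2.03 in MRM in LCC2 (log2 difference -5.07 ± 0.46 (SE), limma adjusted p = 0.00018). LIF, a cytokine of the IL-6 family, stood at 5149 and 5640.2 in MLM and 2379 and 6004 in MRM in LCC1 and at 851 and 849 in MLM and 676 and 548 in MRM in LCC2 (log2 difference -2.65 ± 0.25 (SE), limma adjusted p = 0.00021). The LCC2 values lay below the parental range of 852 to 1043, in MLM only just. The derivatives did not overlap in CSF2 or LIF. IL24, another interleukin, ranged from 329.8 to 1452 in LCC1 and from 17.6 to 106 in LCC2 (log2 difference -4.14 ± 0.52 (SE), limma adjusted p = 0.000638). Of 22 serpins and plasminogen activation genes 12 were lower and 1 higher, with a median of -1.05 (17 lower and 2 higher without LCC1 replicate 2 in MRM), against 23.4% lower and 22.4% higher over all tested genes. SERPINB2 and SERPINB7 differed by -3.39 ± 0.53 and -3.59 ± 0.43 (SE). LIF and IL24 were each highest in LCC1 replicate 2 in MRM, and without it the differences were -2.38 and -3.52.

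**Figure D3:**
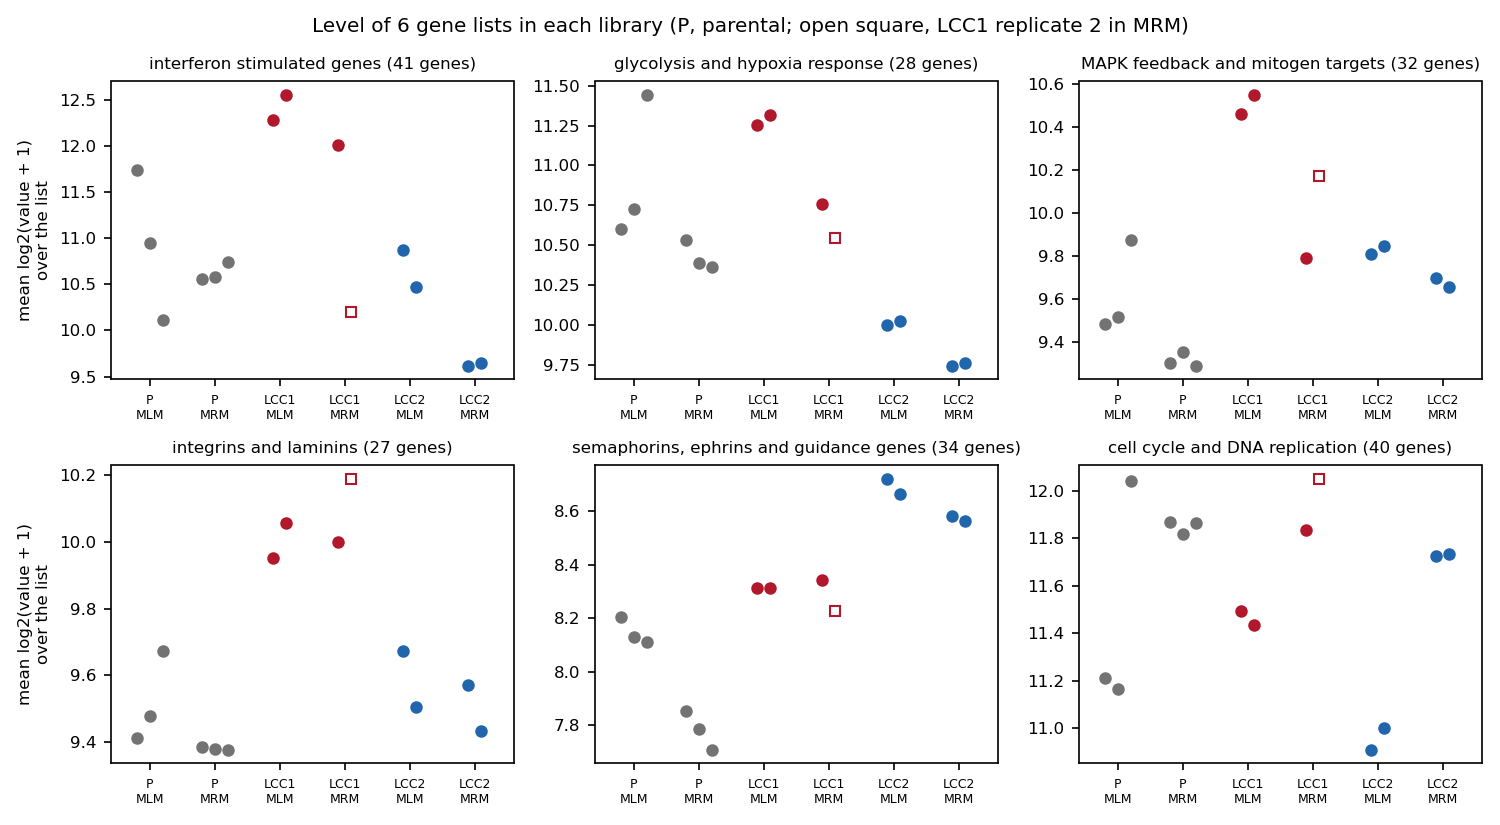
Each panel plots the mean of log2 of the value plus 1 over the genes of 1 list (y axis, with a range of its own in each panel) in each of the 14 libraries, grouped on the x axis by population and medium, with P for parental and an open square for LCC1 replicate 2 in MRM. The interferon list shows that library at 10.2, within the LCC2 range over both media and above both LCC2 libraries of MRM. The glycolysis and hypoxia list shows all 4 LCC2 libraries below all other libraries.

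Epithelial, luminal and mesenchymal genes differed in both directions. Of 15 tested luminal breast genes 9 were higher and 4 lower in LCC2, with a median of 0.31 (4 lower and 8 higher without LCC1 replicate 2 in MRM). PIP, a secretory protein of breast and other glands, ranged from 0.781 to 17.3 in LCC1 and from 59.8 to 82.9 in LCC2 (log2 difference 3.11 ± 0.63 (SE), limma adjusted p = 0.00543). The luminal factor GATA3 differed by 0.40 ± 0.055 (SE). FOXA1 differed by 0.31 ± 0.099 (SE), a call that was lost without LCC1 replicate 2 in MRM (0.25, limma adjusted p = 0.0509) and without LCC1 replicate 1 in MLM or in MRM or either LCC2 library of MRM (limma adjusted p from 0.0544 to 0.109). Of 29 epithelial markers 9 were higher and 3 lower (4 lower and 10 higher without LCC1 replicate 2 in MRM). Fewer calls were made without 1 of the LCC2 libraries of MRM: 3 were higher and 2 lower without LCC2 replicate 1 in MRM, and 2 higher and 2 lower without LCC2 replicate 2. By medium 3 were higher and 6 lower in MLM, and 8 higher and 2 lower in MRM. Among all 15467 tested genes 2871 were higher and 3093 lower in MLM, and 2567 higher and 2941 lower in MRM. GRHL3, an epithelial barrier factor, ranged from 56.5 to 126 in LCC1 and from 157 to 413 in LCC2 (log2 difference 1.73 ± 0.18 (SE), limma adjusted p = 0.000286), whereas the simple keratin KRT18 was lower in LCC2 (log2 difference -0.83 ± 0.14 (SE), limma adjusted p = 0.00232). CDH1 was not called (0.081 ± 0.11, SE).

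Of 16 tested mesenchymal genes and EMT factors 9 were lower and 1 higher in LCC2, with a median of -0.55 (9 lower and 1 higher without LCC1 replicate 2 in MRM). TNC, a matrix glycoprotein, stood at 21975 and 19764 in MLM and 14899 and 28611 in MRM in LCC1 and at 10609 and 8134 in MLM and 3632 and 3652 in MRM in LCC2 (log2 difference -1.83 ± 0.30 (SE), limma adjusted p = 0.00214). FN1, fibronectin, ranged from 35744 to 86517 in LCC1, 17758 to 30150.3 in LCC2 and 3102 to 8089.7 in the parental libraries (log2 difference -1.11 ± 0.14 (SE), limma adjusted p = 0.000758). TWIST1, a transcription factor of the mesenchymal programme, was near 0 in the parental libraries (0 to 4.14) and differed by -0.49 ± 0.13 (SE, limma adjusted p = 0.0182) between the derivatives, a call that was lost without either LCC2 library of MRM (limma adjusted p = 0.0559 and 0.0604) with equal library totals (limma adjusted p = 0.061) and with a spread shared by all 14 libraries (limma adjusted p = 0.378). It lay at 186 to 339 in LCC1 and 129 to 269 in LCC2. VIM, vimentin, was not called, and LCC1 replicate 2 in MRM stood above the rest of its group: 192 and 141 in MLM and 263 and 2549.5 in MRM in LCC1, against 178 to 671 in LCC2. Other keratins moved singly. KRT34, which is not in the list of basal and squamous epithelial genes, stood at 551 and 637 in MLM and 138 and 334 in MRM in LCC1 and at 6.86 and 10.1 in MLM and 0.873 and 2.03 in MRM in LCC2 (log2 difference -6.24 ± 0.32 (SE), limma adjusted p = 3.16e-05). Among the members of that list KRT6A differed by -2.68 ± 0.25 and KRT6B by 1.79 ± 0.19 (SE). Of its 24 tested genes 6 were higher and 8 lower (10 lower and 6 higher without LCC1 replicate 2 in MRM), against 22.4% higher and 23.4% lower over all tested genes.

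The amplified ERBB2 region was expressed unevenly. Of 15 tested genes of the ERBB2 amplicon and its neighbours 9 were lower and 3 higher in LCC2, with a median of -0.37 (10 lower and 3 higher without LCC1 replicate 2 in MRM). ERBB2 itself stood at 217790.5 and 209118 in MLM and 194381 and 119992 in MRM in LCC1 and at 185327 and 187245 in MLM and 145447 and 136399.6 in MRM in LCC2 and was not called (log2 difference -0.16 ± 0.15 (SE), limma adjusted p = 0.413), and without LCC1 replicate 2 in MRM, its lowest library, it was called lower in LCC2 (-0.30, limma adjusted p = 0.00825). GRB7, an adaptor protein next to ERBB2, ranged from 49373 to 84109 in LCC1, 28477 to 30389 in LCC2 and 33897 to 54151 in the parental libraries (log2 difference -1.27 ± 0.15 (SE), limma adjusted p = 0.000431). GSDMB, a gasdermin, stood at 15307 and 17070.4 in MLM and 15321 and 17748 in MRM in LCC1 and at 3490.1 and 3511 in MLM and 4773 and 4329.8 in MRM in LCC2 (log2 difference -2.03 ± 0.094 (SE), limma adjusted p = 2.24e-05). ORMDL3, a regulator of sphingolipid synthesis, differed by -0.98 ± 0.063 (SE). PPP1R1B, an inhibitor of protein phosphatase, went the other way, at 684 and 584 in MLM and 490.1 and 167 in MRM in LCC1 and 5666 and 6144 in MLM and 2048 and 2115 in MRM in LCC2 (log2 difference 3.04 ± 0.29 (SE), limma adjusted p = 0.000222). The derivatives did not overlap in GRB7, GSDMB or PPP1R1B and did in ERBB2.

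Lists of growth and protein quality held more lower than higher calls in LCC2. Of 40 cell cycle and replication genes 20 were lower and the other 20 were not called, with a median of -0.29 (-0.48 in MLM and -0.13 in MRM). Without LCC1 replicate 2 in MRM 21 were lower and 2 higher. With equal library totals 16 were lower and 4 higher, with a median of -0.15. That scaling gave 2463 lower and 5020 higher of all 15590 tested genes. CDC6, a licensing factor of replication origins, stood at 7509.8 and 7813 in MLM and 5631 and 8436 in MRM in LCC1 and at 2341 and 2569 in MLM and 3396 and 3514 in MRM in LCC2 (log2 difference -1.32 ± 0.16 (SE), limma adjusted p = 0.000607), and the helicase subunit MCM6 differed by -1.19 ± 0.063 (SE). The proliferation marker MKI67 was not called, at 8057 and 8088 in MLM and 9303 and 15246 in MRM in LCC1 and 5957 and 5575 in MLM and 13084 and 13039 in MRM in LCC2, though without LCC1 replicate 1 in MRM it was called lower (-0.38, limma adjusted p = 0.00399). Of 34 ribosomal protein genes 21 were lower and 2 higher, with a median of -0.30, with equal library totals 14 were lower and 3 higher, and without LCC1 replicate 2 in MRM 22 were lower and 3 higher. Of 28 stress response genes 13 were lower and the other 15 not called, and without LCC1 replicate 2 in MRM 20 were lower and 1 higher. With equal library totals 11 of them were lower and 1 higher. HSPA5, the chaperone of the endoplasmic reticulum, stood at 65309 and 68876 in MLM and 30550.3 and 25156 in MRM in LCC1 and at 16942 and 17449 in MLM and 21142 and 20908 in MRM in LCC2. Of 16 heat shock chaperones 10 were lower and 1 higher, which became 5 lower and 1 higher with equal library totals and 12 lower and 3 higher without LCC1 replicate 2 in MRM.

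Among the developmental lists, guidance and HOX genes held more higher than lower members. Semaphorins, ephrins and netrins steer migrating cells and axons through receptors on the cell surface, and of 32 tested genes of these families 15 were higher and 7 lower in LCC2, with a median of 0.44 (11 lower and 17 higher without LCC1 replicate 2 in MRM). SEMA3F, a secreted semaphorin, ranged from 245 to 1135 in LCC1, 2103 to 2743 in LCC2 and 4029 to 7936 in the parental libraries (log2 difference 1.96 ± 0.42 (SE), limma adjusted p = 0.00696). SEMA3A, of the same family, went the other way (log2 difference -2.25 ± 0.45 (SE), limma adjusted p = 0.00508). NTN1, a netrin, stood at 355 and 369 in MLM and 466 and 459 in MRM in LCC1 and at 1796 and 1596 in MLM and 968 and 938 in MRM in LCC2. Of 20 HOX genes 8 were higher and 1 was lower, with 0.94 ± 0.14 (SE) for HOXB3 (1 lower and 8 higher without LCC1 replicate 2 in MRM). In the TGF-beta and BMP pathway 11 of 34 were higher and 7 lower (10 lower and 14 higher without LCC1 replicate 2 in MRM), against 22.4% higher and 23.4% lower over all tested genes. Among SOX factors and stem cell regulators 7 of 25 were higher and 5 lower (7 lower and 8 higher without LCC1 replicate 2 in MRM), near the background of 22.4% higher and 23.4% lower over all tested genes. SOX4 ranged from 3321 to 4017 in LCC1, 7155 to 9873 in LCC2 and 17731 to 27395 in the parental libraries (log2 difference 1.18 ± 0.084 (SE), limma adjusted p = 8.38e-05).

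SOX2, SOX9 and the WNT inhibitor DKK1, which are studied in latent cancer cells, gave 3 different results. SOX2 stood at 40.5 and 45.8 in MLM and 40.1 and 14.8 in MRM in LCC1 and at 82.3 and 66.9 in MLM and 62 and 65.6 in MRM in LCC2 (log2 difference 1.06 ± 0.30 (SE), limma adjusted p = 0.0221), and both derivatives lay below the parental 349 to 925. This call was lost without LCC1 replicate 1 or LCC2 replicate 1 in MLM or either LCC2 library of MRM (limma adjusted p from 0.0526 to 0.0664). SOX9 was not called, with 4972 to 6697 in LCC1 and 5938 to 6090.4 in LCC2 (log2 difference 0.037 ± 0.082 (SE), limma adjusted p = 0.737). DKK1 stood at 4429.7 and 4319 in MLM and 1401 and 4476 in MRM in LCC1 and at 9185 and 8591 in MLM and 6212 and 6538 in MRM in LCC2 (log2 difference 1.18 ± 0.31 (SE), limma adjusted p = 0.0152), so all 4 LCC2 libraries were higher. Of 27 tested WNT ligands, receptors and inhibitors 7 were higher and 5 lower, with a median of 0.046 (6 lower and 7 higher without LCC1 replicate 2 in MRM). These counts lie near the background of 22.4% higher and 23.4% lower over all tested genes. The ligand WNT6 ranged from 71.1 to 292 in LCC1 and from 919 to 1438 in LCC2 (log2 difference 2.51 ± 0.37 (SE), limma adjusted p = 0.00132). PROM1, the surface protein CD133, ranged from 46.1 to 219 and from 639 to 772 in the same order (log2 difference 2.68 ± 0.41 (SE), limma adjusted p = 0.00157), whereas KLF4 was lower in LCC2 (log2 difference -1.47 ± 0.21 (SE), limma adjusted p = 0.00112).

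Listed ligands of NK cell receptors were lower in LCC2 or not called. NK cells read many of them through the receptors NKG2D and DNAM-1. The list also holds NCR3LG1, CD48, CD58, ICAM1 and CLEC2D, which bind other receptors, and not every member need activate NK cells. Of 13 tested ligands 5 were lower in LCC2 and the other 8 were not called, with a median of -0.44 (7 lower and 0 higher without LCC1 replicate 2 in MRM). Over all tested genes 23.4% were lower. MICB, a ligand of NKG2D, stood at 361 and 344 in MLM and 343 and 641 in MRM in LCC1 and at 138 and 111 in MLM and 106 and 114 in MRM in LCC2 (log2 difference -1.79 ± 0.22 (SE), limma adjusted p = 0.00054), and the parental libraries lay at 210.3 to 532. PVR, a ligand of DNAM-1, ranged from 5196 to 7188 in LCC1 and from 2657 to 4307 in LCC2 (log2 difference -0.96 ± 0.12 (SE), limma adjusted p = 0.000593). ULBP1 differed by -0.71 ± 0.099 (SE, limma adjusted p = 0.00103) and ULBP2 by 0.033 ± 0.17 (SE, limma adjusted p = 0.886), so ULBP2 was not called. ULBP2 stood at 395 and 396 in MLM and 512 and 616 in MRM in LCC1 and at 567 and 500.4 in MLM and 444 and 429.9 in MRM in LCC2, which is 0.43 in MLM and -0.36 in MRM.

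Some of the differences were shared by neighbouring genes. The tested genes were put in their order along the chromosomes with the RefSeq table (15032 of 15467 placed), and a run was a stretch of windows of 15 genes in which at least 12 differed in 1 direction with a median of at least 0.4 on the log2 scale. The runs were found from the same differences, so the values inside them are a description. There were 120 runs, 55 with LCC2 higher and 65 with LCC2 lower, and they held 3707 genes (24.7% of those placed). Of 6946 called genes that were placed, 2226 (32.0%) lay in runs. Inside runs 60.0% of the genes were called in either direction, against 45.8% of all tested genes. The longest run lay on chromosome 3 from NUP210 to PDE12, with 293 genes, of which 266 were higher in LCC2 and 198 were called higher. Its median was 0.51, with 0.56 in MLM and 0.49 in MRM. Against the parental level the medians were -0.31 in LCC1 and 0.14 in LCC2. VIPR1, a receptor for vasoactive intestinal peptide, had the largest called difference there, at 81.1 and 96.5 in MLM and 117 and 95.3 in MRM in LCC1 and 821 and 742 in MLM and 577 and 564 in MRM in LCC2 (log2 difference 2.77 ± 0.17 (SE), limma adjusted p = 5.2e-05). Both ribosomal protein genes that were higher in LCC2, RPL15 (0.40 ± 0.07, SE) and RPSA (0.50 ± 0.12, SE), lie in this run.

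On chromosome 2 a run of 87 genes from PTPN4 to GPD2 was lower in LCC2, with a median of -0.58, and it stood at 0.14 in LCC1 and -0.40 in LCC2 against the parental cells. A run of 63 genes from LRRC75B to INPP5J on chromosome 22, which holds LIF, had a median of -0.45. On chromosome 21 the runs from SMIM11 to TMPRSS3 (43 genes) and from PFKL to PRMT2 (30 genes, among them COL6A1 and COL6A2) had medians of 0.62 and 0.61. The run of 16 genes from MED1 to PSMD3 on chromosome 17 holds ERBB2, and its median was -0.41. Windows of 10 genes gave 4644 genes in runs and windows of 25 genes gave 3241. DNA copy number was not measured here, and its part in these runs was not tested.

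**Figure D4:**
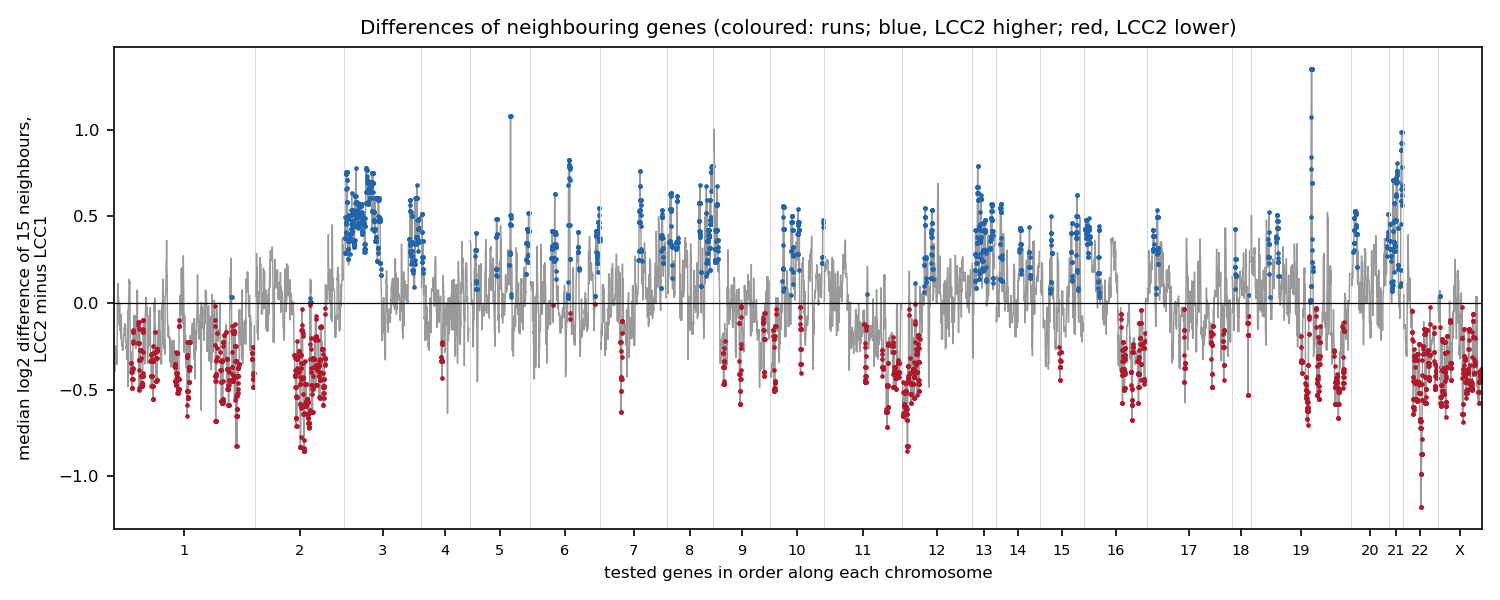
The x axis gives the tested genes in their order along each chromosome, and the y axis the running median over 15 neighbouring genes of the log2 difference LCC2 minus LCC1. Coloured points belong to runs, blue where LCC2 was higher and red where it was lower. The longest blue stretch is the run of 293 genes on chromosome 3, at a median of 0.51.

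The difference between the derivatives was also compared between the media. A limma test of the LCC2 minus LCC1 difference in MLM against that in MRM called 558 genes (3.61%), 285 with a larger value in MLM (1.84%) and 273 with a smaller one (1.77%). Without LCC1 replicate 2 in MRM it called 5831 of 15430 (37.8%), which included all 558, and without LCC1 replicate 1 in MRM it called 7401. Leaving out 1 of the other 6 libraries left 0 to 4 calls, with 1880 to 2334 genes at an unadjusted p under 0.05. MT1X, a metallothionein, stood at 684 and 606 in MLM and 1559 and 647 in MRM in LCC1 and at 1459 and 1713 in MLM and 125 and 107 in MRM in LCC2, which is 1.29 in MLM and -3.11 in MRM (difference between media 4.40 ± 0.52 (SE), limma adjusted p = 0.0185). KRT75, a keratin, stood at 136 and 182 in MLM and 302 and 338 in MRM and at 1659 and 1469 in MLM and 216 and 237 in MRM in the same order (3.80 ± 0.23 (SE), limma adjusted p = 0.00591). ACTA2, smooth muscle actin, stood at 472 and 351 in MLM and 1132 and 561 in MRM and at 7053 and 5748 in MLM and 1294 and 1283 in MRM (3.27 ± 0.45 (SE), limma adjusted p = 0.0245). The secreted protein AGR2 went the other way, at 5006 and 6222 in MLM and 651 and 235 in MRM in LCC1 and at 1994 and 2133 in MLM and 1801 and 1939 in MRM in LCC2 (-3.69 ± 0.59 (SE), limma adjusted p = 0.0316). The mucin MUC16 differed by -2.90 in MLM and by 0.076 in MRM, at 2800.0 and 3450.0 in MLM and 1403 and 2384 in MRM and at 440.1 and 394 in MLM and 2062 and 1802 in MRM (-2.97 ± 0.35 (SE), limma adjusted p = 0.0183). STRA6, a receptor for retinol-binding protein, differed by -3.83 in MLM and by -1.10 in MRM.

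**Figure D5:**
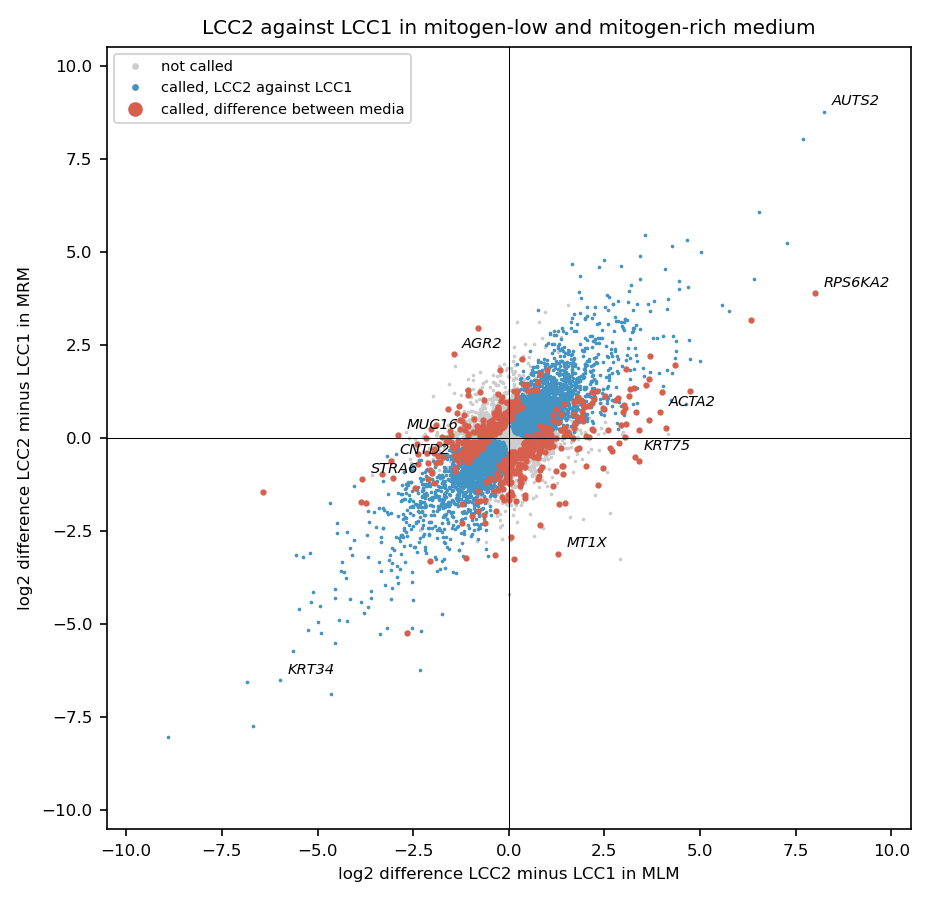
Each point is 1 tested gene, with its log2 difference LCC2 minus LCC1 in MLM on the x axis and in MRM on the y axis. Blue points were called over both media, red points were called for a difference between the media, and grey points were neither. AUTS2 and KRT34 lie far from 0 on both axes, and MT1X and KRT75 lie on opposite sides of 0 in the media.

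The parental libraries show which derivative left the parental level, and both comparisons share those libraries. LCC1 differed from the parental cells at 9673 tested genes (62.5%) and LCC2 at 9338 (60.4%). Of the 7082 genes that differed between the derivatives, 1994 had left the parental level in LCC1 alone and 1725 in LCC2 alone. Another 2493 had left it in both in the same direction, 535 in both in opposite directions, and 335 in neither. Without LCC1 replicate 2 in MRM the order of the first 2 counts turned, with 1980 in LCC1 alone and 2063 in LCC2 alone, and 3289, 713 and 522 in the other classes. These classes rest on calls, so a gene not called against the parental cells may still have moved. By the calls LIF, CSF2 and AUTS2 had left the parental level in LCC1 alone. Yet the LCC2 libraries of AUTS2 lay below the parental ones, at 969 and 977 against 1338 to 1363 in MLM and 1891 and 1831 against 2102 to 2152 in MRM. In LCC2 alone NDRG1, EGFR, CHST14 and GALNT12 had left the parental level. CHST14, a sulfotransferase for dermatan sulfate, ranged from 179 to 346 in LCC1, 4.05 to 17.1 in LCC2 and 237 to 497 in the parental libraries (log2 difference -4.79 ± 0.39 (SE), limma adjusted p = 0.000134). GALNT12, which starts mucin-type glycan chains, ranged from 296 to 585, 30.4 to 45.7 and 449.8 to 539 in the same order (log2 difference -3.44 ± 0.15 (SE), limma adjusted p = 1.84e-05). COL17A1, GRB7 and GAPDH had risen in LCC1 and fallen in LCC2, and DOCK8, an exchange factor for small GTPases, the reverse, with 1001 to 1741 in the parental libraries, 136 to 399.7 in LCC1 and 2559 to 2813 in LCC2. GEM, a small GTPase, had risen in both: it ranged from 3.99 to 20.9 in the parental libraries, 172 to 861 in LCC1 and 26.4 to 106 in LCC2.

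Marker lists of other cell types were read as well. The derivatives came from a mouse organ, but the processing notes name human genome builds. These counts of human genes therefore cannot say whether mouse cells were present. In bulk RNA fewer cells of a type and less RNA per cell cannot be told apart. Over all tested genes 23.4% were lower in LCC2 and 22.4% higher. Of 10 fibroblast markers 3 could be tested and 1 was lower in LCC2, and their summed level was 1217 to 1731 in LCC1 and 945 to 1116 in LCC2. LUM was at 0 and DCN, PDGFRA, THY1 and POSTN were under 5 in all 8 libraries. Of 10 blood cell markers 4 could be tested and 3 were lower, with sums of 956 to 1403 in LCC1 and 548 to 774 in LCC2. CD3E, HBA1 and HBB were under 5 in all 8 libraries. Of 7 tested kidney markers 3 were lower and 1 higher (528 to 634 in LCC1 and 210.3 to 302 in LCC2), and of 5 tested markers of neurons and glia 3 were lower and the other 2 were not called (5198 to 6639 and 3525 to 5613). Of 8 endothelial markers 7 were tested and limma called 0, with 0 at an unadjusted p under 0.05, 0 in edgeR and 1 lower in DESeq2, and without LCC1 replicate 2 in MRM 2 were lower. Of 9 lung markers 6 were tested and limma called 0, with 3 at an unadjusted p under 0.05, 1 higher in edgeR and 0 in DESeq2, and SFTPA1 was at 0 in all 8 libraries. The part of other cell types in the differences above was not tested.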

How the data were processed

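Total RNA of 14 HCC1954 libraries was read from the deposited tables of both media (25369 genes). Judged from the values, the deposited signal is reads divided by a size factor: 100% were whole within 0.01 reads after multiplying back. Bowtie2 2.2.4, HTSeq 0.6.1p1, DESeq2 1.8.1, hg19 and GRCh37 are named in the submitters' processing notes. Genes with a mean of at least 10 over the 8 LCC libraries were compared on log2(value + 1) with limma 3.58.1 (R 4.3.3, trended prior, two-sided). The comparisons over both media, also those with the parental cells, had population and medium as additive terms. Those within a medium and between the media had 1 mean per population and medium. Adjusted p-values are Benjamini-Hochberg over all tested genes. On the recovered reads edgeR 4.0.16 called 7059 genes and DESeq2 1.42.0 called 7470. The members, the 41 lists and the rule for named genes (up to 15 per direction by size, up to 4 per list, 30 focal genes, and the largest per class, run and difference between media) were chosen with earlier results of these data known. Outside it, PLCXD3, MX1, CA12, SLC16A3, LDHA, GAPDH, VEGFA, EPHA2, MYC, EGR1, MET, ITGA6, ITGB2, COL6A1, GATA3, FOXA1, NTN1, SOX4, RPL15, RPSA and the marker genes at or near 0 were chosen after their values were seen. Promoters and gene order are from RefSeq (GRCh38.p14). The fit was also run on simulated reads. These held no effect of medium and no library that stood apart, so that run cannot say how the calls depend on either. The 12 chromatin samples were not analysed here. Some genes are not reported here.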

Additional observations from a re-analysis of the deposited data

Results flagged for a closer look

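The difference between LCC2 and LCC1 was not the same in MLM and MRM at 558 genes, by a limma test of that difference itself. The count by limma was 0 to 4 when 1 of the libraries other than those of LCC1 in MRM was left out, with 1880 to 2334 genes at an unadjusted p under 0.05. Of the genes named in the report 17 passed this test. Leaving out LCC1 replicate 2 in MRM cannot check these calls, since it leaves 1 library in that group and lowers the spread. The signed value of LCC2 minus LCC1 was higher in MLM than in MRM, in log2 units, by 4.40 for MT1X, 4.12 for RPS6KA2, 3.80 for KRT75, 3.27 for ACTA2, 2.39 for SPARC, 1.70 for COL6A2, 1.49 for ITGB2, 1.24 for KRT6A, 1.18 for NTN1 and 1.14 for COL6A1. MT1X (1.29 in MLM and -3.11 in MRM) and KRT6A (-2.06 and -3.3) nonetheless lay further from 0 in MRM. The value in MLM minus that in MRM was -3.69 for AGR2, -2.97 for MUC16, -2.73 for STRA6, -2.24 for EGR1, -1.56 for HSPA5, -1.08 for KLF4 and -0.48 for FOXA1. The collagen VI chains COL6A1 and COL6A2, SPARC and ACTA2 were thus higher in LCC2 by more in MLM than in MRM. HSPA5, the chaperone, differed by -1.96 in MLM and by -0.40 in MRM.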

How the results depend on the processing

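The count of 7082 genes that differed between LCC2 and LCC1 ranged from 5563 to 8583 when 1 of the 8 libraries was left out, and from 5924 to 7483 under the other alternatives, which were pseudocounts of 0.5 and 5, means of at least 1 and 50, equal library totals, edgeR, DESeq2, a replicate block and a spread shared by all 14 libraries. The difference between media did not hold its count of 558: DESeq2 gave 1140, the replicate block gave 0 (with 2514 genes at an unadjusted p under 0.05), and leaving out 1 library gave 0 to 7401. Within MLM the count of 5964 ranged from 2863 to 10558 with 1 library left out and was 10133 with the MLM libraries alone in the fit, and within MRM the count of 5508 ranged from 1919 to 10135 and was 1050 with the MRM libraries alone. These fits of single media were chosen after seeing the data, and where 1 library is left its group is assumed to vary like the others. The replicate numbers do not pair the libraries (correlations of their deviations -0.0028 in MLM and 0.01 in MRM), and the replicate block called 5924 genes. Against the parental cells, leaving out both libraries that stood apart, also chosen after seeing the data, gave 10207 calls for LCC1 and 10504 for LCC2. Of 114 genes named, 105 kept direction and side of the threshold in every alternative, and of 1936 pairs of a gene and an alternative 26 lost the call, 9 gained it and 0 reversed. Depth limits the genes near 0, where a few reads set the fold.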
